A study of Mus musculus with 9 samples.

Results

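The 30 genes described here belong to hypoxia sensing and to the response driven by hypoxia-inducible factor (HIF). Of these, 8 encode HIF subunits or the proteins that tie HIF to oxygen, called sensors below, and 22 are reported HIF targets, with the enzymes of glycolysis left out. They were taken by symbol from 24063 gene symbols, and each was read from its transcript with the highest mean count. All 30 symbols were present, and 29 had enough counts to be tested. The exception was Epas1.

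RNA was sequenced from C2C12, an established mouse myoblast line whose cells fuse into muscle fibres in low serum. All fibres were wild type, were differentiated in DMEM with 2% fetal bovine serum and carry the time label day 3. Fibres of the 1C-MIM group were given One-Carbon Metabolite Induced Medium, a mix of 6 metabolites tied to the one-carbon network. Fibres of the scramble group were given 6 metabolites with no tie to that network, and control fibres stayed in normal medium. Each group holds 3 libraries. The sources used here do not give the names or doses of the metabolites or the oxygen level of the cultures. C2C12 is a single cell line without vessels or blood, so it models the fibre and not the muscle. No label states that the 3 libraries of a group are separate cultures, and the spread behind each p-value may therefore be technical.

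HIF is a pair of proteins, an oxygen-regulated alpha subunit and the stable partner ARNT. When oxygen is present, prolyl hydroxylases of the EGLN family mark the alpha subunit, the ubiquitin ligase VHL binds the mark and the proteasome destroys the protein. When oxygen falls the mark is not made, and HIF binds a short core sequence near genes of glucose use, acid export, mitophagy, collagen processing and blood supply. In skeletal muscle HIF is best known for shifting fuel use in the fibre and for signals to vessels. Because the alpha subunit is governed by protein decay, its RNA level does not report its protein level.

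Count totals with 1 transcript per gene were 29.0 to 30.3 M in 1C-MIM, 29.1 to 31.8 M in scramble and 31.2 to 33.2 M in control. Levels are given as CPM, counts scaled to the TMM-normalized library size, in the order of libraries 1, 2 and 3, and as mean ± SD with n = 3. Fold changes are on the log2 scale ± SE, from edgeR's quasi-likelihood test with all 14006 tested genes, and a gene was called at a Benjamini-Hochberg adjusted p below 0.05. In every group library 1 stood apart from libraries 2 and 3, and most so in control. By the chi-square per degree of freedom, control replicate 1 differed from control replicates 2 and 3 at 42.8 and 47.47. Control replicates 2 and 3 differed from each other at 7.59. In the same order the values were 15.14, 15.53 and 3.26 in scramble and 9.12, 13.11 and 4.16 in 1C-MIM. Of the 22 targets, 17 were lower with 1C-MIM than in control with all libraries. The number was also 17 without control replicate 1, and it was 16 without the 3 libraries numbered 1. These were not all the same genes. In both settings Adm lost its call and Loxl2 gained one, and Vegfa lost its call without the 3 libraries numbered 1.

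Against control, 17 of the 22 HIF targets fell with 1C-MIM, 2 rose and 3 did not pass the test. Over all tested genes 47.3% were called, 24.3% lower and 22.9% higher, so the 77.3% of targets that were lower stand against a background of 24.3%. The members were chosen with earlier results of these data known, so this contrast is a description and not an independent test. The median log2 fold change was -0.50 over the 22 targets and -0.01 over all genes, and 5 targets fell at least 2-fold. The 3 libraries of 1C-MIM lay wholly below those of control for 17 targets and wholly above them for 2, where this held for 28.2% and 27.3% of all genes. The sensors moved both ways, with 3 of the 7 tested higher and 2 lower.

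Dividing cells differed between the same groups. The 8 markers of dividing cells, among them Mki67 and Top2a, summed to 673 to 831 CPM in 1C-MIM, against 1399 to 1673 CPM in scramble and 1297 to 1695 CPM in control, and all 8 were called lower with 1C-MIM in both comparisons. Markers of myoblasts and reserve cells summed to 717 to 766 CPM in 1C-MIM, 493 to 499 CPM in scramble and 452 to 463 CPM in control. Of these 8 markers, 4 were higher and 1 was lower than in control. Markers of muscle fibres summed to 8470 to 10560 CPM in 1C-MIM, 5975 to 8558 CPM in scramble and 5126 to 9461 CPM in control. Of these 10 markers, 3 were called higher and 0 lower than in control. The 1 marker with a negative log2 fold change stood at -1.16 against control, with no overlap of libraries, and was not called. The 5 fibroblast and adipogenic progenitor markers summed to 359 to 393, 371 to 437 and 338 to 451 CPM in the same order, with 3 of 4 tested higher than in control and 1 lower. Endothelial markers summed to at most 1.17 CPM in any library, with Tie1 and Emcn at 0. Tek, the endothelial marker that passed the filter on low counts, averaged 0.928 ± 0.164 CPM in 1C-MIM, 0.342 ± 0.0691 CPM in scramble and 0.299 ± 0.105 CPM in control, and was called higher with 1C-MIM against control (log2 fold change 1.63 ± 0.32, adjusted p = 0.0017) and against scramble (1.43 ± 0.32, adjusted p = 0.0036). Leukocyte markers summed to at most 4.30 CPM, with Adgre1 at 0. The part of cell division or cell type in the HIF target values was not tested, and in bulk RNA fewer cells of a type and less RNA per cell cannot be told apart.

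The RNA of Hif1a, the alpha subunit that most tissues use, did not pass the test. It stood at 203, 214 and 216 CPM in 1C-MIM, 213, 227 and 232 CPM in scramble and 203, 229 and 219 CPM in control. The groups overlapped, and the log2 fold change was -0.04 ± 0.06 against control (adjusted p = 0.60) and -0.09 ± 0.06 against scramble (adjusted p = 0.23). Without the 3 libraries numbered 1 the value against scramble was called, at -0.10 (adjusted p = 0.0333). Epas1, which encodes the alpha subunit HIF-2 alpha, was close to undetected and too low for the test: it had 2, 8 and 20 counts in 1C-MIM, 3, 0 and 6 in scramble and 0, 1 and 2 in control. With no filter on low counts Epas1 was called higher with 1C-MIM than in control (adjusted p = 0.0251), on 30 counts in all against 3.

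Arnt, the common partner of both alpha subunits, rose slightly. It had 112, 115 and 114 CPM in 1C-MIM, 101, 95.9 and 101 CPM in scramble and 105, 91.6 and 91.5 CPM in control. All 1C-MIM libraries lay above the other 6, and the log2 fold change was 0.25 ± 0.06 against control (adjusted p = 0.0041) and 0.20 ± 0.06 against scramble (adjusted p = 0.014). The call against scramble was lost without scramble replicate 2 (adjusted p = 0.0621). Vhl, the part of the ubiquitin ligase that recognises hydroxylated HIF, rose by 0.26 ± 0.06 against control (adjusted p = 0.0058) and 0.28 ± 0.06 against scramble (adjusted p = 0.0042). Its values were 33.4, 30.5 and 31.8 CPM in 1C-MIM, 24.9, 28.3 and 25.8 CPM in scramble and 25.9, 26.9 and 27.2 CPM in control, with no overlap.

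The 3 prolyl hydroxylase genes split. Egln3, a hydroxylase gene that is itself a HIF target, fell most among them: it had 114, 115 and 109.8 CPM in 1C-MIM, 233, 209.8 and 222 CPM in scramble and 271, 202 and 218 CPM in control. Every 1C-MIM library was below every other library, and the level was 2.04-fold lower than in control (log2 fold change -1.03 ± 0.09, adjusted p = 1.4e-05) and 1.97-fold lower than in scramble (-0.98 ± 0.09, adjusted p = 2.2e-05). Without control replicate 1, the highest control, the value against control was -0.90. Egln1, the hydroxylase taken as the main oxygen sensor and likewise induced by HIF, had 72.9, 70.5 and 71.9 CPM in 1C-MIM, 94.4, 95.1 and 104 CPM in scramble and 102, 97.3 and 108 CPM in control. It fell by 0.51 ± 0.06 against control (adjusted p = 3.5e-05) and by 0.45 ± 0.06 against scramble (adjusted p = 9e-05).

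Egln2, the hydroxylase gene that, unlike the other two, is not a known HIF target, rose instead. Its values of 54.5, 52.5 and 52.3 CPM in 1C-MIM lay above 41.2, 40.5 and 42.7 CPM in scramble and 41.6, 43.7 and 41.7 CPM in control, and the log2 fold change was 0.33 ± 0.05 against control (adjusted p = 0.00025) and 0.36 ± 0.05 against scramble (adjusted p = 0.00015). Hif1an, the asparagine hydroxylase that blocks coactivator binding to HIF, was not called. It had 98.2, 96.2 and 105 CPM in 1C-MIM, 121, 98.5 and 104 CPM in scramble and 123, 96.4 and 93.8 CPM in control. The groups overlapped, the log2 fold change against control was -0.06 ± 0.11 (adjusted p = 0.65), and without control replicate 1 its sign turned to 0.07.

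**Figure D1:**
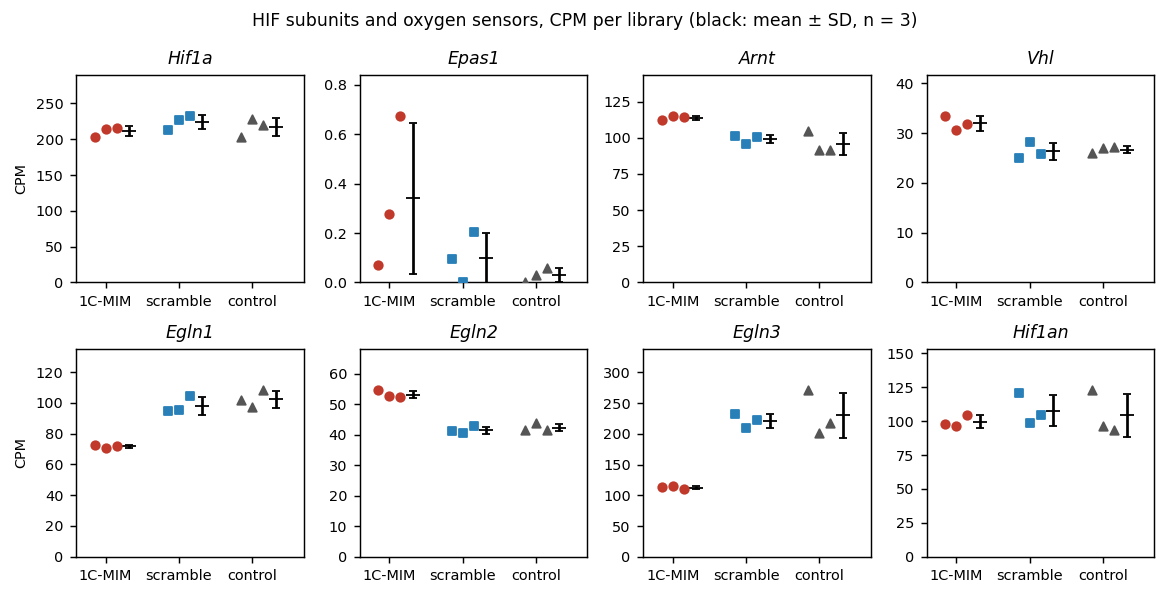
CPM of the 8 HIF subunit and oxygen sensing genes in each library (coloured points; 1C-MIM, scramble and control from left to right, n = 3 each), with mean ± SD in black and each axis starting at 0. Egln1 and Egln3 lie lower and Egln2, Vhl and Arnt higher in all 1C-MIM libraries, Hif1a and Hif1an overlap, and Epas1 rests on at most 20 counts per library.

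Among the targets, the 3 with the smallest p in the comparison with control for which a RefSeq promoter was at hand are shown by sequence, since the HIF core motif can be read in them. Each line gives the 250 bases before and 50 bases after the gene start, 5′ to 3′ on the strand of the gene (RefSeq, GRCm38.p6). Capitals mark the HIF core, ACGTG or GCGTG, on either strand, so that CACGT and CACGC are the same cores read from the opposite strand. Bnip3 lies at chr7:138909457-138909756 on the minus strand, Car9 at chr4:43506776-43507075 on the plus strand and Ankrd37 at chr8:45999801-46000100 on the minus strand.
Bnip3: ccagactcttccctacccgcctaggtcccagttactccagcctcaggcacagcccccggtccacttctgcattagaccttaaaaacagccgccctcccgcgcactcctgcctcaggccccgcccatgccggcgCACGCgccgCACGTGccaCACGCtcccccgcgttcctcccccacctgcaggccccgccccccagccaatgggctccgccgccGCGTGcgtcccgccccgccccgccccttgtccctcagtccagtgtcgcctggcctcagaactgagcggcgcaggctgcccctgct
Car9: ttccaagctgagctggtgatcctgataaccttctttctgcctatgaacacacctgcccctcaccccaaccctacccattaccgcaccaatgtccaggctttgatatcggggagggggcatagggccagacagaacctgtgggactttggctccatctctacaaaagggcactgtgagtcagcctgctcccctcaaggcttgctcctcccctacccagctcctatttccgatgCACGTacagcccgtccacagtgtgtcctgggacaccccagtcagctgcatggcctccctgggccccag
Ankrd37: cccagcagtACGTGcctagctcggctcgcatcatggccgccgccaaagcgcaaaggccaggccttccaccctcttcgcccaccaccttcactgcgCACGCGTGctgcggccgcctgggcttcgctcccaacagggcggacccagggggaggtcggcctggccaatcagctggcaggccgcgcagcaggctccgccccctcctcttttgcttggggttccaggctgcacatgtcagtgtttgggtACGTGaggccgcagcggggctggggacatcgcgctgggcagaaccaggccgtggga
The Bnip3 window held cores whose first base lay 117, 108, 107, 99 and 35 bases before the start, those at 108 and 107 being the overlapping strands of 1 palindrome. The Car9 window held 1 core, 18 bases before the start, and the Ankrd37 window held cores at 241, 155, 152 and 6 bases before it, those at 155 and 152 overlapping.

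A promoter window was at hand for 23 of the 30 genes, and only the first window of each gene was read. Of these, 18 (78.3%) held at least 1 core and 15 (65.2%) held at least 2 separate ones, counting overlapping cores as 1. Among the first windows of all tested genes, 62.5% of 10320 held a core and 30.4% held at least 2, and among all 32851 windows 43.8% held a core. The windows of genes lower with 1C-MIM than in control held a core in 13 of 16 cases (81.2%), and the windows of the other members in 5 of 7 (71.4%). The first windows of Vegfa, Mxi1, Car12, Vhl and Hif1an held none, which says only that these letters are not in those 300 bases. Vegfa had 2 windows and Mxi1 had 3, and the later ones were not read. A match of 5 letters is a description of the sequence and not a measured binding site.

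The genes of mitochondria and mitophagy were called lower in both comparisons, 4 of 4, where 24.3% (control) and 23.2% (scramble) of all genes were. Bnip3, a receptor that hands mitochondria to autophagy, had 61.9, 67.3 and 63.5 CPM in 1C-MIM, 168, 185 and 224 CPM in scramble and 179.9, 208 and 222 CPM in control. The highest 1C-MIM library was below the lowest of the others by more than 2-fold, and Bnip3 was 3.17-fold lower than in control (log2 fold change -1.66 ± 0.11, adjusted p = 3e-06) and 2.99-fold lower than in scramble (-1.58 ± 0.11, adjusted p = 4.4e-06). The related receptor gene Bnip3l had 117, 129 and 125 CPM in 1C-MIM, 142, 165 and 165 CPM in scramble and 146, 169 and 171 CPM in control, without overlap. It fell by 0.39 ± 0.08 against control (adjusted p = 0.0017) and by 0.35 ± 0.08 against scramble (adjusted p = 0.0037).

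Fam162a, a mitochondrial protein tied to cell death in hypoxia, and Higd1a, a small inner membrane protein that acts on the respiratory chain, also fell. Fam162a had 77.5, 85.4 and 81.6 CPM in 1C-MIM, 132, 160.2 and 178 CPM in scramble and 122, 173 and 188 CPM in control (log2 fold change -0.98 ± 0.16 against control, adjusted p = 0.0013). Higd1a had 35.8, 36.6 and 37.2 CPM in 1C-MIM, 47.3, 55.7 and 64.5 CPM in scramble and 55.4, 60.5 and 66.6 CPM in control (-0.74 ± 0.10, adjusted p = 0.00023). For both genes the 1C-MIM libraries lay close together and below all others, while scramble and control libraries were spread more widely. Against scramble they fell by 0.94 ± 0.16 (Fam162a, adjusted p = 0.0017) and 0.61 ± 0.10 (Higd1a, adjusted p = 0.0008).

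Genes of acid and lactate export were called lower as well, 3 of 3 against control and 2 of 3 against scramble. Of all genes 24.3% and 23.2% were. Car9, a carbonic anhydrase on the cell surface that is among the best known HIF targets, had 34.8, 36.8 and 42.8 CPM in 1C-MIM, 117, 114 and 154 CPM in scramble and 107, 118 and 134 CPM in control. This was 3.14-fold lower than in control (log2 fold change -1.65 ± 0.14, adjusted p = 1.7e-05) and 3.36-fold lower than in scramble (-1.75 ± 0.14, adjusted p = 1.4e-05). Slc16a3, the lactate exporter MCT4, had 23.0, 21.6 and 19.7 CPM in 1C-MIM, 55.6, 58.9 and 80.7 CPM in scramble and 54.5, 65.1 and 68.4 CPM in control, a fall of 1.55 ± 0.15 against control (adjusted p = 3.8e-05) and 1.60 ± 0.15 against scramble (adjusted p = 3.6e-05). For neither gene did any 1C-MIM library come near the other groups.

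Car12, a second surface carbonic anhydrase, was less even. It had 14.2, 7.87 and 6.76 CPM in 1C-MIM, 13.1, 13.0 and 17.1 CPM in scramble and 15.5, 17.5 and 17.9 CPM in control, so that 1C-MIM replicate 1 lay among the scramble libraries and below the controls. The log2 fold change against control was -0.82 ± 0.25 (adjusted p = 0.023), and the call was lost without 1C-MIM replicate 2, 1C-MIM replicate 3, control replicate 2 or control replicate 3 (adjusted p = 0.0798, 0.0612, 0.0623 and 0.0625). Against scramble it was -0.58 ± 0.25 (adjusted p = 0.085) with all libraries and -0.98 (adjusted p = 0.000584) without 1C-MIM replicate 1, -1.04 (3.02e-06) without all libraries numbered 1, and called by DESeq2 (0.0243) and limma-voom (0.0428).

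Both secreted vascular factors fell against control, where 24.3% of all genes were called lower. Vegfa, the main growth factor of vessels, had 172, 179 and 170.4 CPM in 1C-MIM, 191, 186 and 202 CPM in scramble and 224, 188 and 221 CPM in control. All 1C-MIM libraries were lowest, by a margin of only a few CPM, and the log2 fold change was -0.28 ± 0.07 against control (adjusted p = 0.0054), a 1.21-fold difference, and -0.15 ± 0.07 against scramble (adjusted p = 0.083). The scramble value passed the threshold when these groups were fitted alone (adjusted p = 0.0163), with library size as the only scale (0.0433), and without control replicate 1 (0.0347) or control replicate 2 (0.0253). The value against control did not pass it without the 3 libraries numbered 1 (adjusted p = 0.0596). The 9 Vegfa transcripts in the tables gave log2 ratios of -0.29 to -0.28 against control, so the choice of transcript did not bear on this value. Transcripts of 1 gene may carry the same reads, so these 9 need not be separate measurements.

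Adm, which encodes the vessel-widening peptide adrenomedullin, was low in every library. It had 2.54, 3.80 and 4.17 CPM in 1C-MIM, 5.36, 6.32 and 7.60 CPM in scramble and 6.48, 4.18 and 6.69 CPM in control. The highest 1C-MIM library and the lowest control were nearly equal, and the fall was 0.72 ± 0.23 against control (adjusted p = 0.023) and 0.87 ± 0.23 against scramble (adjusted p = 0.0096). Without 1C-MIM replicate 1, control replicate 1 or control replicate 3 the call against control was lost (adjusted p = 0.0801, 0.057 and 0.0805), and it was lost too without all libraries numbered 1 (0.0781).

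**Figure D2:**
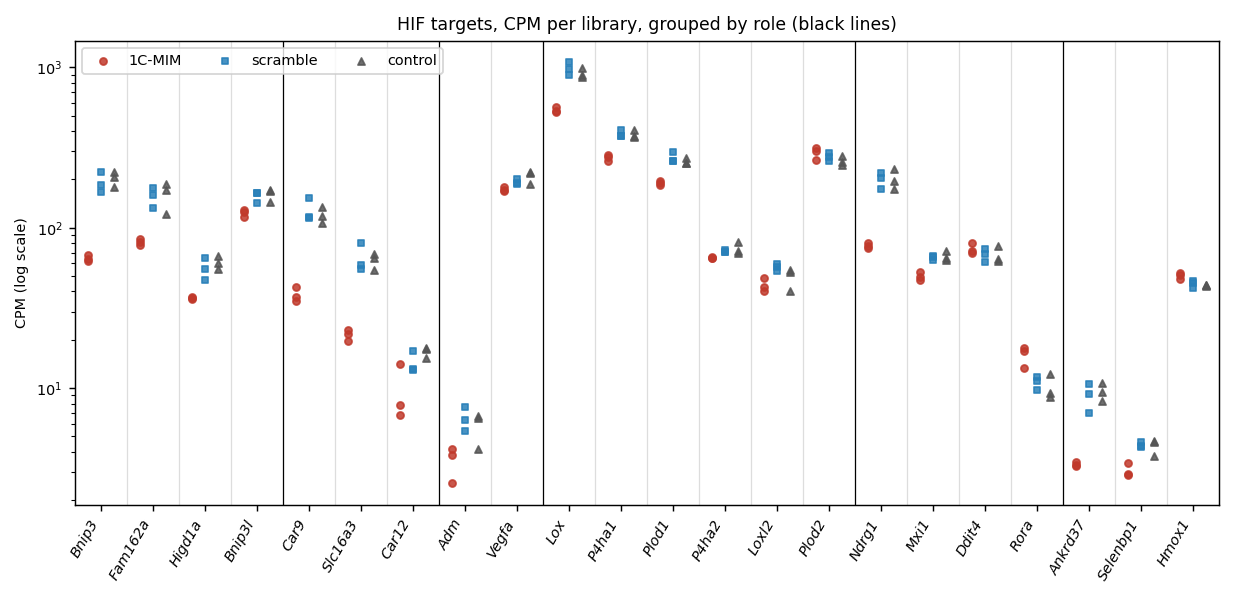
CPM on a log scale of the 22 HIF targets in each library, with 1C-MIM, scramble and control from left to right within each gene and black lines between roles. For Bnip3, Car9, Slc16a3, Ndrg1 and Ankrd37 the 1C-MIM points form a tight cluster well below the other groups, while Plod2 and Ddit4 overlap and Rora and Hmox1 lie above.

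Enzymes that modify and cross-link collagen did not all move one way: 4 of 6 fell against control and 2 were not called. Of all genes 24.3% were called lower. Lox, the lysyl oxidase that cross-links collagen, had 569, 533 and 524 CPM in 1C-MIM, 898, 973 and 1084 CPM in scramble and 867, 897 and 993 CPM in control. It fell by 0.76 ± 0.08 against control (adjusted p = 2.8e-05) and by 0.86 ± 0.08 against scramble (adjusted p = 1.5e-05), with no overlap. P4ha1, a catalytic subunit of collagen prolyl hydroxylase, had 275, 286 and 262 CPM in 1C-MIM, 372, 375 and 405 CPM in scramble and 375, 369 and 404 CPM in control, a fall of 0.48 ± 0.06 against control (adjusted p = 7.7e-05) and 0.49 ± 0.06 against scramble (adjusted p = 7.9e-05). Plod1, a lysyl hydroxylase, had 190.4, 196 and 186 CPM in 1C-MIM, 261, 260.1 and 296 CPM in scramble and 253, 255 and 274 CPM in control, and fell by 0.45 ± 0.06 and 0.52 ± 0.06 against control and scramble (adjusted p = 0.00014 and 6.8e-05).

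The paralogs of these enzymes had calls that depended on single libraries or none against control. P4ha2 stood at 64.6, 65.8 and 64.7 CPM in 1C-MIM, 70.5, 70.2 and 73.1 CPM in scramble and 69.9, 71.2 and 81.0 CPM in control. It fell by 0.19 ± 0.06 against control (adjusted p = 0.021), a call lost without control replicate 3 (adjusted p = 0.0849) and without 1C-MIM replicate 1, 2 or 3 (0.0565, 0.0501 and 0.0634), and it was not called against scramble (-0.13 ± 0.06, adjusted p = 0.089). That value passed the threshold with these groups fitted alone (0.026), with library size as the only scale (0.0376), and without control replicate 1 (0.0425), control replicate 3 (0.0362) or all libraries numbered 1 (0.0475). Plod2, another lysyl hydroxylase, had 316, 299 and 266 CPM in 1C-MIM, 261, 275 and 292 CPM in scramble and 279.9, 248 and 257 CPM in control. Its groups overlapped and its log2 fold change was 0.17 ± 0.07 against control (adjusted p = 0.079), which became 0.22 (adjusted p = 0.0176) without control replicate 1, 0.24 (0.0258) without 1C-MIM replicate 3 and 0.16 (0.015) without all libraries numbered 1. Loxl2, a lysyl oxidase relative, had 40.1, 42.9 and 48.6 CPM in 1C-MIM, 54.0, 56.5 and 59.5 CPM in scramble and 40.4, 54.1 and 53.1 CPM in control. The log2 fold change was -0.17 ± 0.11 against control (adjusted p = 0.24) but -0.29 (adjusted p = 0.00445) without control replicate 1 and -0.23 (0.00198) without all libraries numbered 1. It was -0.37 ± 0.11 against scramble (adjusted p = 0.018), where the call was lost without 1C-MIM replicate 1 or 2 or scramble replicate 3 (0.0675, 0.0601 and 0.0648).

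The 4 targets of growth restraint and transcription went in different directions. Ndrg1, a stress-responsive gene linked to restrained growth, had 76.9, 79.9 and 74.7 CPM in 1C-MIM, 175, 204 and 219.9 CPM in scramble and 173, 196 and 231 CPM in control, a 2.60-fold lower level than in control (log2 fold change -1.38 ± 0.11, adjusted p = 8.4e-06) and 2.58-fold lower than in scramble (-1.37 ± 0.11, adjusted p = 1e-05). Mxi1, which antagonises MYC, had 47.3, 49.1 and 53.0 CPM in 1C-MIM, 62.8, 67.1 and 65.8 CPM in scramble and 63.1, 64.3 and 71.5 CPM in control, without overlap. It fell by 0.41 ± 0.06 against control (adjusted p = 0.00035) and 0.39 ± 0.06 against scramble (adjusted p = 0.00056).

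Rora, a nuclear receptor of the circadian clock, rose. It had 13.2, 16.99 and 17.7 CPM in 1C-MIM, 11.7, 9.66 and 11.1 CPM in scramble and 12.3, 9.35 and 8.78 CPM in control, with every 1C-MIM library highest. The log2 fold change was 0.66 ± 0.15 against control (adjusted p = 0.0036) and 0.56 ± 0.14 against scramble (adjusted p = 0.0091). Ddit4, which restrains mTOR signalling under hypoxia and other stress, was not called: its 69.3, 71.3 and 80.6 CPM in 1C-MIM overlapped with 60.7, 69.0 and 73.7 CPM in scramble and 63.5, 61.9 and 77.1 CPM in control (0.13 ± 0.10 against control, adjusted p = 0.31).

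Of the remaining 3 targets 2 fell and 1 rose against control, where 24.3% and 22.9% of all genes did. Ankrd37, a small ankyrin repeat protein, had 3.45, 3.25 and 3.30 CPM in 1C-MIM, 6.95, 9.15 and 10.5 CPM in scramble and 9.41, 8.27 and 10.8 CPM in control. At 2.85-fold below control it was among the 5 targets that fell at least 2-fold (log2 fold change -1.51 ± 0.16, adjusted p = 3.1e-05), and it was 2.66-fold below scramble (-1.41 ± 0.16, adjusted p = 5.6e-05). Selenbp1, a selenium-binding protein that oxidises methanethiol, had 2.85, 3.42 and 2.89 CPM in 1C-MIM, 4.32, 4.27 and 4.58 CPM in scramble and 3.78, 4.61 and 4.67 CPM in control, and fell by 0.51 ± 0.13 and 0.52 ± 0.13 against control and scramble (adjusted p = 0.0082 and 0.0078). Hmox1, a haem-degrading enzyme that oxidative stress also induces, rose by 0.20 ± 0.05 against control (adjusted p = 0.01), with 50.4, 51.8 and 47.99 CPM in 1C-MIM, 46.4, 41.8 and 45.2 CPM in scramble and 43.3, 43.7 and 43.7 CPM in control. Its rise against scramble (0.17 ± 0.05, adjusted p = 0.023) was lost without 1C-MIM replicate 1 or 2 or scramble replicate 2 (0.0557, 0.0853 and 0.101) and with library size as the only scale (0.0574).

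**Figure D3:**
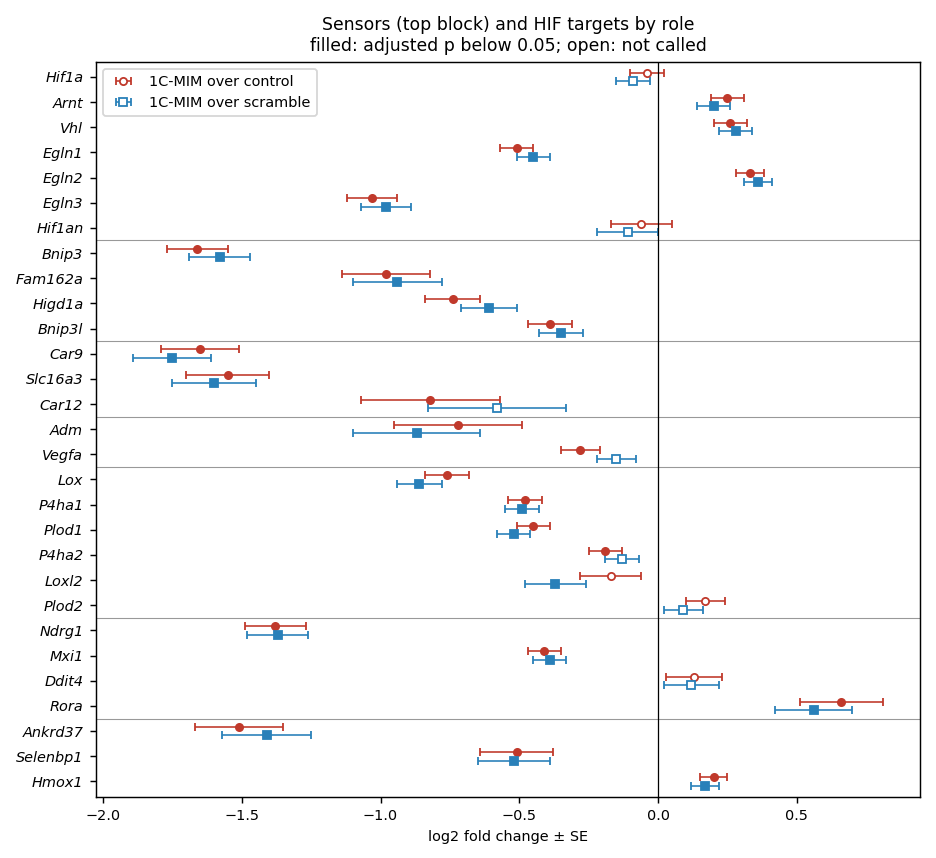
Log2 fold change ± SE of the 29 tested genes with 1C-MIM over control (red circles) and over scramble (blue squares), sensors on top and targets below by role; filled symbols had an adjusted p below 0.05. The falls reach -1.75 (Car9 over scramble), while no rise exceeds 0.66 (Rora over control).

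Against scramble, 15 of the 22 targets fell with 1C-MIM, 2 rose and 5 were not called, where 46% of all genes were called, 23.2% lower and 22.9% higher. The median log2 fold change of the targets was -0.52. The 1C-MIM libraries lay wholly below those of scramble for 17 targets and wholly above them for 2, where this held for 29.9% and 29.7% of all genes. Vegfa and P4ha2 were among these 17 without passing the test. The sensors had the same counts as against control, 3 higher and 2 lower. Both comparisons share the 1C-MIM libraries, so neither is independent support for the other.

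Between scramble and control no member was called. Their log2 fold changes ran from -0.23 (Car12) to 0.20 (Loxl2), and none of the 29 had an unadjusted p below 0.05. For 0 of the 29 did the scramble libraries lie wholly below or wholly above those of control, which held for 4.26% and 4.83% of all genes. Over all genes edgeR called 0 of 14006 (0.0%) at a smallest adjusted p of 0.167, with 482 at an unadjusted p below 0.05, limma-voom called 0 and DESeq2 called 30. Bnip3 averaged 192 ± 28.9 CPM in scramble and 203 ± 21.5 CPM in control, and Car9 averaged 128 ± 22.2 CPM in scramble and 119.9 ± 13.7 CPM in control (SD, n = 3 each). No label states that the replicate numbers of these groups are pairs. By the correlation of deviations from group means, same-numbered libraries stood clearly apart from other pairings only for number 1 (0.481). Within same-numbered pairs 5 of the 29 were lower in scramble in all 3 pairs (Egln1, Bnip3l, Car12, Vegfa and Higd1a), which held for 14.1% of all genes, and 3 were higher in all 3 (Plod1, Lox and Loxl2), which held for 14.5%. With the replicate block edgeR called 0 of 14006 genes, with 690 at an unadjusted p below 0.05. Loxl2 was the 1 member among them, at a log2 fold change of 0.21 ± 0.0667 (edgeR adjusted p = 0.821). A p above the threshold does not show that the groups were equal.

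The order of the genes by level changed with their falls. On the authors' TPM scale, which takes transcript length into account, Fam162a (180.6 ± 7.98 TPM in 1C-MIM, 350.0 ± 67.3 TPM in control) and Lox (156 ± 7.63 TPM in 1C-MIM, 260.4 ± 15.9 TPM in control) were highest of the 30 in both groups. Bnip3 came 11th in 1C-MIM, at 51.5 ± 2.09 TPM, and 3rd in control, at 160.4 ± 13.0 TPM. Car9 came 19th in 1C-MIM (27.4 ± 2.89 TPM) and 9th in control (84.8 ± 8.14 TPM), and Slc16a3 came 23rd in 1C-MIM (12.1 ± 0.989 TPM) and 18th in control (35.0 ± 3.13 TPM). Hif1a stood at 62.4 ± 1.68 TPM in 1C-MIM and 63.2 ± 1.79 TPM in control, and Epas1 was last in both, under 0.1 TPM. Some neighbours in this order lay within each other's SD, as did Car9 (84.8 ± 8.14 TPM) and Vegfa (83.0 ± 9.91 TPM) in control.

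In scramble and in control, most targets were highest in the same library. In scramble 19 of the 22 targets were highest in library 3 (86.4%) and in control 17 (77.3%), against 31.7% and 30.9% of all tested genes. In 1C-MIM it was 7 (31.8%), against 31.2% of all genes. The median difference between library 3 and library 1 over the targets was 0.25 in scramble, 0.21 in control and 0.01 in 1C-MIM on the log2 scale. The median SD of log2 CPM within a group was 0.071 over the targets and 0.081 over all genes in 1C-MIM, 0.139 and 0.088 in scramble, and 0.148 and 0.112 in control. What sets the libraries of a group apart is not given in the labels, and the targets are not independent of each other.

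**Figure D4:**
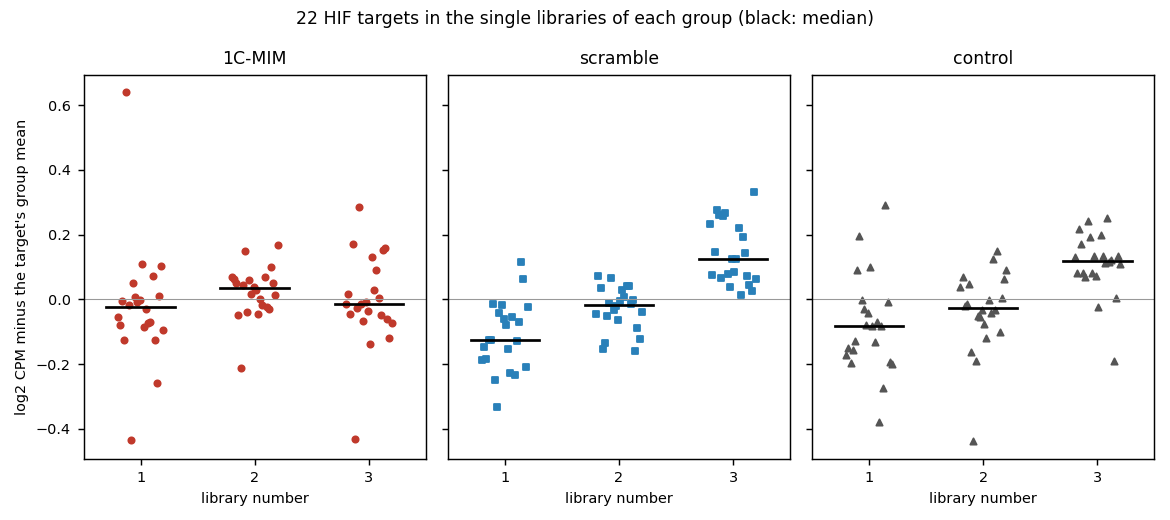
Log2 CPM of each of the 22 HIF targets minus its own group mean, by library number, for 1C-MIM, scramble and control (black lines: medians over the targets). In scramble and control most points of library 3 lie above 0 and most of library 1 below, and in 1C-MIM the medians of all libraries lie near 0.

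Against control, genes of proteins that act on HIF were called at shares near those of all genes. Of 27 regulators and cofactors 25 were tested; against control 5 were higher and 5 lower (20.0% each, with 22.9% and 24.3% over all genes), and the median was 0.0. Crebbp, a coactivator acetyltransferase, averaged 65.0 ± 0.745 CPM in 1C-MIM, 43.9 ± 3.29 CPM in scramble and 40.1 ± 2.19 CPM in control, and rose by 0.70 ± 0.06 against control (adjusted p = 1e-05). Kdm3a, a histone demethylase that is itself induced by HIF, averaged 57.7 ± 1.95 CPM in 1C-MIM, 84.4 ± 0.591 CPM in scramble and 92.4 ± 8.16 CPM in control, and fell by 0.68 ± 0.06 (adjusted p = 1.2e-05). Cul2 and Rbx1, the scaffold and ring subunits of the VHL ligase, rose by 0.23 ± 0.05 and 0.22 ± 0.06 (adjusted p = 0.003 and 0.0097). The adaptor subunits Elob and Eloc, named after their values were seen, were not called (log2 fold changes 0.04 and 0.0, adjusted p = 0.62 and 0.98). Siah2, a ligase that targets the EGLN proteins, fell by 0.37 ± 0.06 (adjusted p = 0.00038), Fbxw7, another ligase subunit, by 0.44 ± 0.13 (0.019) and Cited2, which competes with HIF for coactivators, by 0.14 ± 0.05 (0.037). Jmjd6, a lysyl hydroxylase of the nucleus, rose by 0.20 ± 0.06 (0.013). Against scramble 5 of the 25 were higher and 3 lower, and Fbxw7 and Cited2 were not called (adjusted p = 0.063 and 0.054).

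A wider list held 50 reported HIF targets outside the 30 genes, of which 46 were tested. It too was chosen with earlier results of these data known. Against control 28 were lower (60.9%) and 7 higher (15.2%), with 24.3% and 22.9% over all genes. The median log2 fold change was -0.37. Ak4, a mitochondrial adenylate kinase, averaged 5.63 ± 0.408 CPM in 1C-MIM, 23.3 ± 2.01 CPM in scramble and 25.4 ± 3.28 CPM in control, a 4.51-fold lower level than in control (log2 fold change -2.17 ± 0.11, adjusted p = 4.1e-07). Pdk1, the kinase that holds pyruvate out of the mitochondrial cycle, averaged 75.7 ± 5.8 CPM in 1C-MIM, 192 ± 14.0 CPM in scramble and 209 ± 9.44 CPM in control (-1.46 ± 0.07, adjusted p = 2.9e-07). Mb, which encodes the oxygen-binding protein myoglobin, averaged 344 ± 16.5 CPM in 1C-MIM, 697 ± 39.1 CPM in scramble and 739 ± 49.4 CPM in control (-1.10 ± 0.07, adjusted p = 1.3e-06). The corepressor gene Rcor2 (-0.69 ± 0.06) and the Notch effector gene Rbpj (-0.50 ± 0.05) fell too (adjusted p = 1.2e-05 and 2.1e-05).

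Some reported targets rose. Igfbp3, a binding protein for insulin-like growth factors, averaged 74.5 ± 6.55 CPM in 1C-MIM, 30.8 ± 1.26 CPM in scramble and 32.5 ± 3.28 CPM in control (log2 fold change 1.20 ± 0.08 against control, adjusted p = 2.2e-06). The chemokine receptor gene Cxcr4 averaged 213 ± 16.6 CPM in 1C-MIM, 115 ± 7.62 CPM in scramble and 120.4 ± 6.95 CPM in control (0.82 ± 0.07, adjusted p = 8.2e-06). The AP-1 subunit gene Fosl2 rose by 0.57 ± 0.04 (adjusted p = 4.5e-06). Against scramble 26 of the 46 were lower (56.5%) and 7 higher (15.2%), with 23.2% and 22.9% over all genes and a median of -0.33. The 8 genes named here with the smallest p kept their direction and their call.

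**Figure D5:**
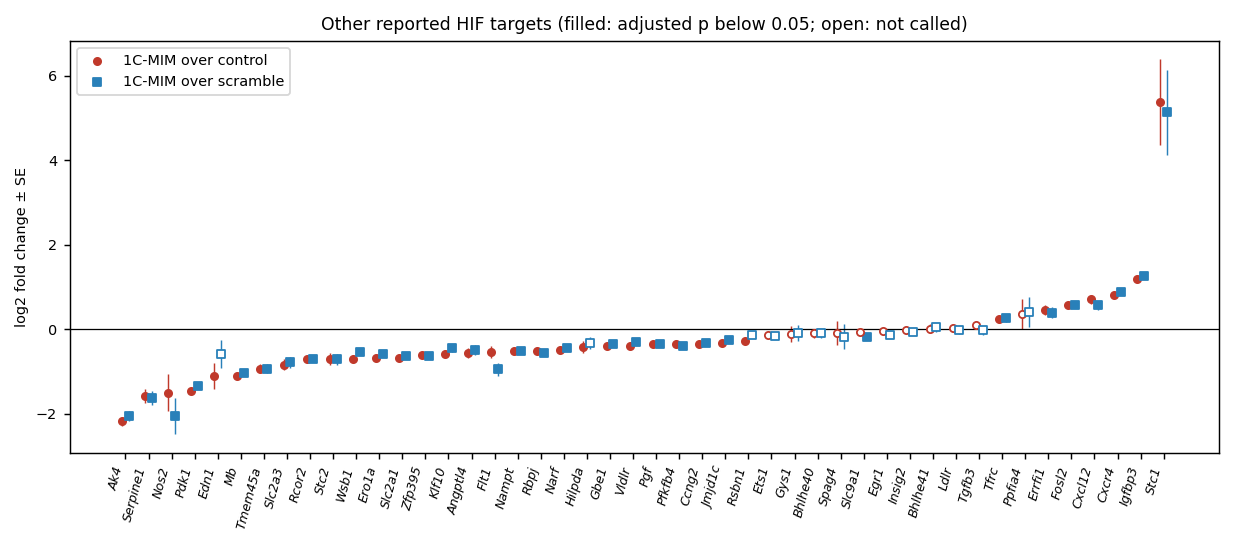
Log2 fold change ± SE of the 46 tested genes of the wider list, with 1C-MIM over control (red circles) and over scramble (blue squares), ordered by the value over control; filled symbols had an adjusted p below 0.05. The genes at the low end include Ak4 (-2.17) and Pdk1 (-1.46); Stc1, at the high end and picked after its values were seen, had 5.95, 21.7 and 64.6 CPM in the 3 libraries of 1C-MIM and at most 1.02 CPM in any other.

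Some of these values may carry reads that cannot be assigned with certainty. In the mouse transcripts of GENCODE M21, 59.1% of the 50-base words of Bnip3 also occur in other genes (42.4% in a gene on the opposite strand, 19.9% in Gm45507 on the opposite strand, and 16.9% and 13.5% in Gm16439 and Gm6532 on the same strand), 52.3% of those of Selenbp1 (all of it in Selenbp2), 45% of Loxl2 (mostly Gm21451), 24.4% of Bnip3l (Bnip3l-ps) and 24.4% of Higd1a. Fam162a shares 16.5% with Wdr5b and Ankrd37 shares 10.5% with Lrp2bp on the opposite strand, Ndrg1 shares 9.62% with Gm17035 and Plod2 8.0% with Gm38391. Hif1a shares 6.26% of its words with other genes. The sources used here do not say if strand was used in counting. A share of words is not a share of counts, and the share of uncertain counts was not measured. Car9, Slc16a3, Lox, P4ha1, Plod1, Egln1, Egln2 and Egln3 shared under 5% of their words with any other gene.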

How the data were processed

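The deposited tables hold, per the file headers, a TPM, an FPKM and a count in each of 9 libraries for 33984 transcripts. The counts deposited by the authors are whole numbers and not normalized. The authors' FPKM values were not used here, and the authors' TPM values served only to order levels between genes. The submitters' processing notes name the build GRCm39 and, without roles, STAR, Salmon 1.5.2, StringTie 2.2.1, featureCounts, Subread 2.0.1, Trim Galore 0.6.7, Picard 2.27.4, SAMtools 1.15.1, DESeq2 1.28.0 and bedtools 2.30.0. The sources used here do not tell the role of each tool or if strand was used.

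Of 24063 symbols, 5261 had several transcripts, and the one with the highest mean count was kept. The filter filterByExpr kept 14006 genes, and the other 10057 held 0.0280% of the counts. Counts were tested with edgeR 4.0.16 (quasi-likelihood, robust, TMM, R 4.3.3), with all 9 libraries in 1 fit, no replicate block and Benjamini-Hochberg adjustment. The fit was tested on simulated data. Precision was set by 3 libraries a group (common biological coefficient of variation 0.0842). Alternatives were other scalings and filters, DESeq2 1.42.0, limma-voom (limma 3.58.1), the compared groups alone, the replicate block, the mean over transcripts, stricter thresholds and libraries left out. Replicate numbers were checked for pairing by the correlation of deviations from group means. It was 0.481, 0.214 and 0.168 for scramble with control, and blocking left 0 calls there. Scramble replicate 2 correlated more with control replicate 3 (0.242), and scramble replicate 3 reached 0.123 with control replicate 2. Only the libraries numbered 1 were thus clearly matched, and a pairing of the others remains unsure. For 1C-MIM the values were weaker, 0.194, 0.084 and 0.104 with control and 0.153, 0.035 and 0.028 with scramble. 1C-MIM replicate 1 was positive only with the libraries numbered 1, and ran from -0.176 to -0.053 with the others. A pairing of 1C-MIM replicates 2 and 3 remains unsure.

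The members and lists were chosen with earlier results of these data known. All 30 members may be named; of each wider list, the 8 genes of at least 1 CPM with the smallest p against control were named with values, and promoters were printed for the 3 targets with the smallest p that had one. Promoter windows came from RefSeq (GRCm38.p6) by symbol, and 7 members had none at hand. No coordinates of the files' build were used.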

Additional observations from a re-analysis of the deposited data

How the results depend on the processing

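Direction and call were kept in most settings. Over all of them, the targets lower with 1C-MIM numbered 10 to 17 against control and 9 to 17 against scramble, and their median log2 fold change stayed at -0.56 to -0.45 and -0.55 to -0.45. The lowest counts came from a minimum fold of 1.5, which left 10 and 9 targets lower, 1 and 0 higher, and 0 sensors higher and 1 lower in both comparisons, with 2257 and 2094 genes called in all. Targets higher numbered 1 in both comparisons at an adjusted p below 0.01, and 1 against scramble with library size alone. Leaving out 1 library at a time gave 14 to 17 targets lower in both comparisons, 1 to 2 targets higher against scramble and 0 to 3 genes called between scramble and control (3 without control replicate 1). Between scramble and control DESeq2 called 30 genes, and 96 were called without the 3 libraries numbered 1, none of them a member in either case. Signs turned for Hif1an against control, which ran from -0.135 to 0.066 with 1 library left out (0.066 without control replicate 1) and was 0.079 without the libraries numbered 1, and for Plod2 against scramble, to -0.004 in the last setting. None of these values was called, and the cause was not tested.

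With the replicate block the targets lower numbered 16 against control, where Car12 lost its call (adjusted p = 0.0506), and 16 against scramble, where P4ha2 gained one (adjusted p = 0.0492). The block changed no other call of a member. Over all genes the block raised the calls from 6621 to 7397 against control and from 6449 to 7309 against scramble. By the correlation check only 1C-MIM replicate 1 stood apart with the libraries of its number, more weakly than scramble with control. A pairing of the other 1C-MIM libraries remains unsure.

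The low counts of Epas1, Adm and Selenbp1 limit their precision, and differences as small as those of Vegfa, P4ha2 and Hmox1 depend on single libraries or on the scale.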

Other observations

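Other genes of the wider list of reported HIF targets, picked after their values were seen, went both ways. Slc2a1, the glucose transporter GLUT1, averaged 74.0 ± 0.64 CPM in 1C-MIM, 114 ± 5.14 CPM in scramble and 117 ± 12.5 CPM in control (edgeR log2 fold change -0.67 ± 0.07 against control, adjusted p = 2.8e-05; SD, n = 3 each). The iron uptake receptor gene Tfrc averaged 177 ± 1.34, 147 ± 1.52 and 150.2 ± 20.6 CPM in the same order and was called higher than in control (0.24 ± 0.08, adjusted p = 0.028). The chemokine gene Cxcl12, whose receptor is Cxcr4, had 422, 339.6 and 309.8 CPM in 1C-MIM, 221, 233 and 268 CPM in scramble and 225, 202 and 226 CPM in control (0.71 ± 0.11 against control, adjusted p = 0.00054). All 1C-MIM libraries were above the others for both Tfrc and Cxcl12.

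Stc1, a secreted hormone gene, was the least even within 1C-MIM. It had 169, 628 and 1919 counts in the 1C-MIM libraries, 30, 19 and 30 in scramble and 16, 22 and 34 in control. Its log2 fold change against control was 5.38 ± 1.01 (edgeR, adjusted p = 0.0042), and its lowest 1C-MIM library was above every other library.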
